A study of Arabidopsis thaliana with 30 samples.

Results

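The interval from the start of testa rupture to radicle protrusion in most seeds was described from total mRNA of Arabidopsis thaliana Col-0 seeds. Arrays were chosen by their titles, which gave the 3 arrays of total mRNA at 26 hours after imbibition (HAI) and the 3 at 48 HAI, 6 of the 30 arrays of the series. The other arrays covered dry seeds and 6, 26, 48 and 72 HAI, as total mRNA and as mRNA bound to polysomes (polysomal mRNA), and were used where stated. Both groups were wild type and had the same treatment. Seeds were stored at room temperature until dormancy was lost and were imbibed on wet blotter paper at 22 °C in continuous light. Time was thus the planned difference between the groups. The labels describe a randomized block design but do not tie array numbers to blocks, so a difference in handling cannot be checked. The labels name 3 biological replicates per time point, each harvested from a bulk of 100 plants.

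Germination of Arabidopsis runs in visible steps. The seed takes up water, the testa splits, the radicle breaks through the endosperm, and the seedling then forms root hairs and greens. In the mature seed the embryo holds storage proteins, oil bodies and late embryogenesis abundant (LEA) proteins that were made during maturation under abscisic acid (ABA) regulators, and gibberellin (GA) promotes the weakening of the covering layers. In these seeds testa rupture falls near 26 HAI and radicle protrusion at 48 HAI. Whole seeds and seedlings were extracted, so embryo, endosperm and testa were pooled, and fewer cells of a type and less RNA per cell cannot be told apart.

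Levels were log2 values after robust multi-array averaging (RMA) and are relative to the other genes on the array. The table held 27827 genes, of which 17061 passed the noise limit, for which every replicate of 1 or more of the 10 groups had to exceed 4, and 16839 of these were matched to RefSeq. In the text below, "upregulated" and "downregulated" mean an at least 2-fold change with an adjusted p below 0.05 (limma, Benjamini-Hochberg over the 17061 genes). Arrays of one time point correlated at 0.982 to 0.986 over all genes and arrays of different time points at 0.880 to 0.904. The median level of the tested genes was 5.55 to 5.61 at 26 HAI and 5.42 to 5.47 at 48 HAI.

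Replicate 1 at 26 HAI stood apart for a small set of genes. It lay more than 1 log2 unit above both other replicates for 127 of the genes upregulated by 48 HAI, compared with 6 and 10 genes for replicates 2 and 3. The mean level of the extensin list was 3.72 in replicate 1 and 2.90 and 2.75 in the others, and that of the photosystem list was 4.63 against 4.32 and 4.08. Without this array 2619 genes were upregulated and 2583 downregulated, and 2522 and 2427 of these were called with all arrays too. No count of calls in the 32 gene lists changed by more than 1. The part of this array in single results was not tested further than by leaving it out.

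Between 26 and 48 HAI, 2608 genes were upregulated (15.3% of the genes tested) and 2548 were downregulated (14.9%), the balance of which depended on the scaling. With array medians equalised over all genes, 2246 genes were upregulated and 3400 downregulated, so that 39.8% of the calls were upward rather than 50.6%. The numbers were near equal, but the sizes were not. The median rise was 1.79 and the median fall -1.36 on the log2 scale, and a change of more than 16-fold was found for 175 upregulated and 54 downregulated genes. Among the upregulated genes 1684 had a mean below the noise limit of 4 at 26 HAI, whereas 820 downregulated genes had a mean below 4 at 48 HAI. The 3 values of each time point did not overlap for 2577 of the upregulated and 2541 of the downregulated genes, read against 69.1% of all tested genes. The median of all tested genes changed by -0.18, and list medians below are to be read against this value. Counts of upregulated and downregulated list members are likewise to be read against 15.3% and 14.9% of the genes tested.

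**Figure D1:**
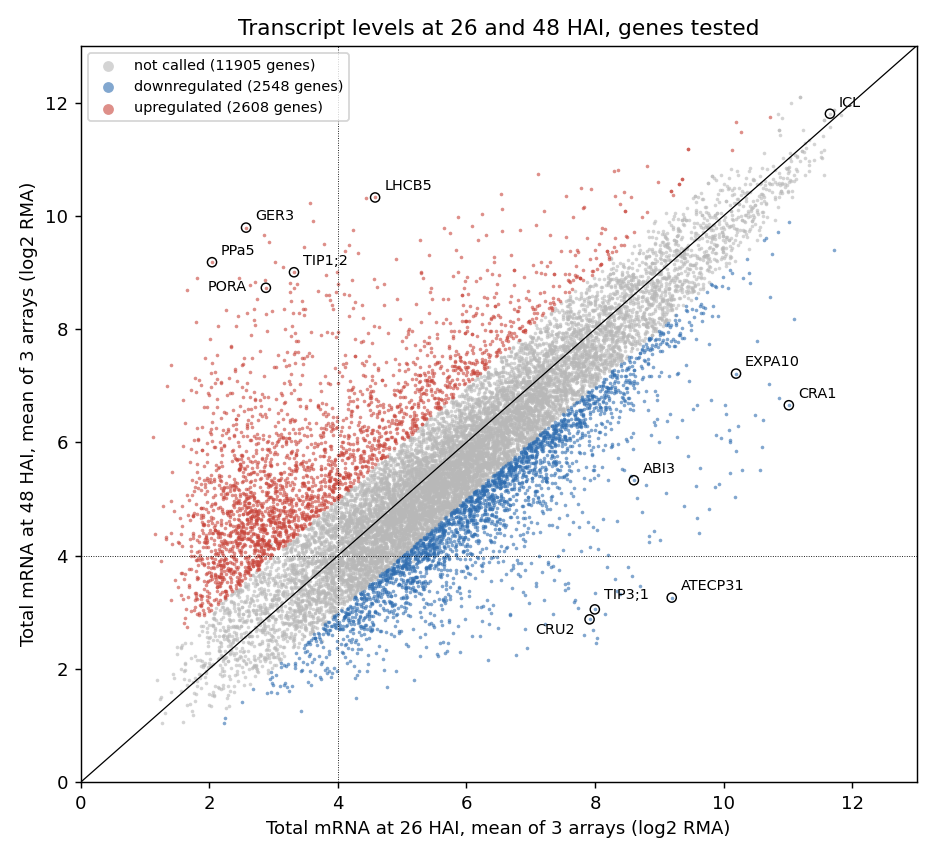
Mean total mRNA level of each tested gene at 26 HAI (x axis) and 48 HAI (y axis), in log2 RMA units over 3 arrays; red and blue points are upregulated and downregulated genes, grey points were not called, the diagonal marks equal levels and dotted lines the noise limit of 4. The 2608 upregulated genes extend further from the diagonal than the 2548 downregulated genes, and named genes are circled.

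The gene with the highest rise was GER3, which encodes a germin-like protein of the cell wall. Its levels at 26 HAI were 3.94, 1.95 and 1.83 in replicates 1 to 3 and those at 48 HAI were 9.81, 9.89 and 9.67. Every 48 HAI value was far above every 26 HAI value, although replicate 1 was the high one at 26 HAI. The difference was 7.22 ± 0.41 (SE of the fit, 3 arrays per time point, limma adjusted p = 1.07e-13). It is a 149-fold change from a level below 4, and it was 7.90 without replicate 1. Each SE in this text rests on a spread pooled over all 10 groups. It can therefore be smaller or larger than the spread of the 6 arrays alone would give. Polysomal replicate 3 at 72 HAI, outside the comparison, entered the pooled spread and stood apart for seed lists. Its mean level was 6.57 for the storage protein list, against 3.36 and 3.32 in replicates 1 and 2. For the oil body list it was 6.16 against 4.16 and 4.09, and for the LEA list 6.75 against 5.11 and 4.94. A fit of the 15 total mRNA arrays, without this array, called 2601 genes upward and 2546 downward. The part of this array in single SEs was not tested. PPa5, a soluble pyrophosphatase, followed GER3 with a rise of 7.14 ± 0.36. GH9B15, which encodes a glycosyl hydrolase of the endoglucanase family, rose by 7.04 ± 0.32. The other 9 of the 12 highest rises lay between 6.15 and 7.09. They included the root hair genes RHS13 and RHS19 and the light-harvesting gene CAB1, and all but AT4G23680 and CAB1 were below 4 in each replicate at 26 HAI.

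The 12 deepest falls lay between -5.93 and -5.04 on the log2 scale, and each of these genes had a mean above 10 in the dry seed. ATECP31, a LEA protein gene, had the deepest. Its levels were 9.02, 9.05 and 9.50 at 26 HAI and 3.44, 3.18 and 3.15 at 48 HAI, which puts the later group below the noise limit. The groups were widely separate and the fall was 61.1-fold (log2 change -5.93 ± 0.43, adjusted p = 8.38e-12). The peroxiredoxin PER1 (-5.24 ± 0.57), the metallothionein AtMT4b (-5.22 ± 0.58) and the cruciferin CRU2 (-5.04 ± 0.67) were among the 12, as was AT1G05510, annotated as an oil body associated protein (-5.28 ± 0.50).

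Transcripts of the seed reserves fell as a group. All 8 tested genes of the storage protein list were downregulated, against 14.9% of all tested genes, with a median change of -3.98. CRA1, which encodes a cruciferin globulin, had levels of 10.93, 10.88 and 11.23 at 26 HAI and of 7.45, 6.15 and 6.37 at 48 HAI. Its groups did not overlap, replicate 1 kept the highest value at 48 HAI, and the change was -4.36 ± 0.50 (adjusted p = 4.97e-08). Albumin genes of the napin type ranged from -4.67 ± 0.49 (SESA5) to -2.33 ± 0.29 (SESA2). Of the 8 tested genes for oil body proteins and lipases, 7 were downregulated. The oleosin OLEO1, which coats oil bodies, stood at 10.23, 10.19 and 10.46 and then at 5.99, 5.03 and 5.55, a change of -4.77 ± 0.48 with no overlap. The exception in this list was not a structural protein. SDP1, the lipase that starts oil breakdown, had 7.44, 7.2 and 7.39 at 26 HAI and 7.37, 7.17 and 7.21 at 48 HAI, values that overlapped (-0.09 ± 0.14, adjusted p = 0.576).

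LEA proteins, which protect dry cells, gave 12 downregulated and 1 upregulated gene out of 17, with a median of -3.55. EM1 went from 10.34, 10.44 and 10.69 to 6.86, 6.25 and 6.34 without overlap (-4.0 ± 0.31, adjusted p = 5.10e-11). The single upregulated member was the dehydrin ERD10, a gene that also responds to cold and drought in vegetative tissue. It had 4.48, 4.21 and 3.71 at 26 HAI and 5.90, 5.84 and 5.74 at 48 HAI, so that it rose by 1.69 ± 0.23, and the change from 48 to 72 HAI was 2.53. Small heat shock protein genes did not move together, with 2 upregulated and 3 downregulated among 9. These shares of 22.2% and 33.3% stand beside 15.3% and 14.9% of all tested genes. HSP17.6A fell by 3.47 ± 0.51 on the log2 scale. HSP17.4 had 4.86, 6.22 and 6.44 followed by 4.91, 3.04 and 3.27, and there the groups overlapped in spite of the call (-2.10 ± 0.64, adjusted p = 0.00643).

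**Figure D2:**
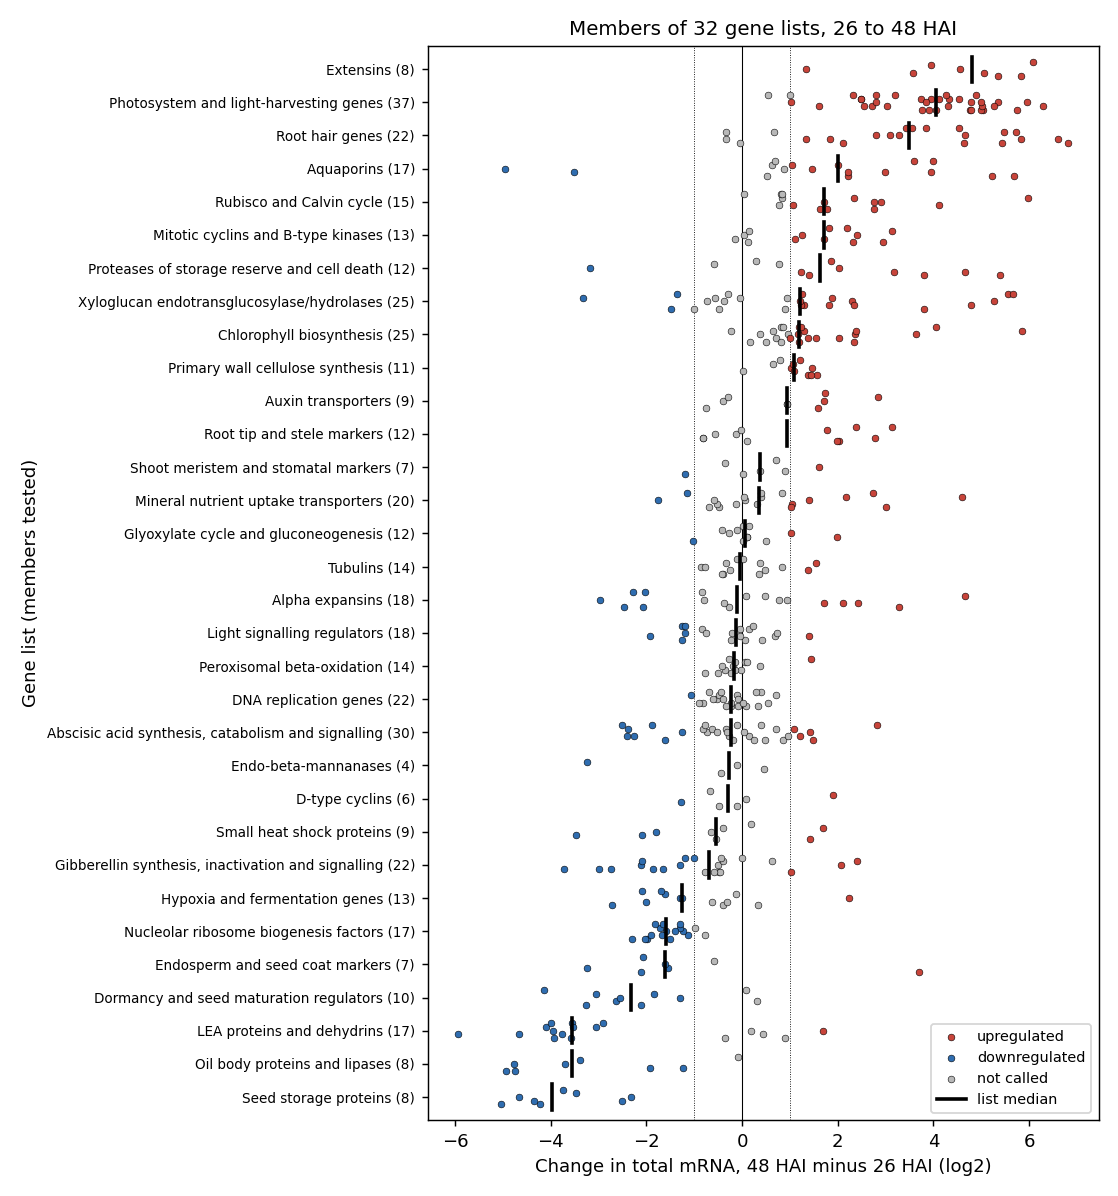
Change in total mRNA from 26 to 48 HAI (x axis, log2) of each tested member of 32 gene lists (y axis, with the number tested); red and blue points were upregulated and downregulated, grey points were not called, and black bars are list medians. Photosystem, extensin and root hair lists lie to the right, with medians of 4.06, 4.81 and 3.48, and the storage, oil body and LEA lists lie to the left, with medians of -3.98, -3.55 and -3.55.

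Regulators of seed maturation and dormancy were downregulated in 8 of 10 cases (median -2.33). ABI3, a B3-domain factor that drives the maturation programme, gave 8.74, 8.61 and 8.46 at 26 HAI and 5.65, 4.95 and 5.40 at 48 HAI. The 2 sets of values were clearly apart, and the change of -3.27 ± 0.23 (adjusted p = 8.48e-12) was larger than that from 6 to 26 HAI (-0.64) and that from 48 to 72 HAI (-0.45), both by the test of the difference. The ABA-response factors ABI4 (-2.55 ± 0.26) and ABI5 (-2.64 ± 0.18), the dormancy phosphatase RDO5 (-3.06 ± 0.24) and MFT, a regulator of ABA sensitivity in seeds (-2.11 ± 0.21), were downregulated as well. DOG1, the main dormancy gene, was below 4 in all 6 arrays and showed no call (0.09 ± 0.28).

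The ABA list held 5 upregulated and 7 downregulated genes of 30 (16.7% and 23.3%; median -0.23), shares near the 15.3% and 14.9% of all tested genes, so that its single genes and not its counts are described. Enzymes of ABA breakdown were called in opposite directions, although the fall lay mostly below the noise limit. CYP707A1, an ABA hydroxylase, rose from 3.28, 3.41 and 3.62 to 6.53, 6.22 and 6.00, with no overlap (2.81 ± 0.23, adjusted p = 1.04e-10). Its paralogue CYP707A2, which acts in imbibed seeds, fell from 4.31, 3.66 and 3.97 to 2.61, 2.22 and 2.25 (-1.62 ± 0.21). All of these CYP707A2 values except 4.31 were below the noise limit of 4, and the mean was below it at both time points. The size of this fall is therefore uncertain. Among the phosphatases of ABA signalling, AHG1 (-2.51 ± 0.40), HAI2 (-2.4 ± 0.20) and HAI3 (-2.25 ± 0.28) fell, while ABI1 rose (1.48 ± 0.14). The ABA receptor PYL2 fell by 2.39 ± 0.26 on the log2 scale, whereas the receptor PYL1 rose by 1.08 ± 0.25.

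Of the 22 tested GA genes 10 were downregulated and 3 upregulated (median -0.69), or 45.5% and 13.6%, beside 14.9% and 15.3% of all tested genes. The falls took in both synthesis and repression of the pathway. GA20OX3, a biosynthetic oxidase, fell from 6.73, 6.57 and 6.75 to 2.86, 2.86 and 3.16 (-3.72 ± 0.26). RGL2, the DELLA repressor of germination, fell from 8.83, 8.90 and 8.86 to 6.12, 6.07 and 6.19, and its replicates were tight enough that the groups stood far apart (-2.74 ± 0.17, adjusted p = 5.54e-13). Its relatives GAI and RGL3 were downregulated too, RGL3 by -2.09 ± 0.22. The receptor gene GID1B rose by 2.4 ± 0.26 while GID1A fell by 1.29 ± 0.17. The GA-induced peptide genes GASA4 and GASA6 had both changed upward from 6 to 26 HAI (5.76 and 6.21) and then parted, with a rise of 2.07 ± 0.33 for GASA4 and a change of -2.99 ± 0.30 for GASA6.

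Expansins loosen the cell wall, and 5 of the 18 tested members were upregulated and 5 downregulated (27.8% each), beside 15.3% and 14.9% of all tested genes, which are split as evenly. The 5 that fell were EXPA1, EXPA2, EXPA8, EXPA10 and EXPA15, each with a mean above 8 at 26 HAI. EXPA2, known from the endosperm of germinating seeds, had 9.31, 9.31 and 9.26 at 26 HAI and 7.67, 7.07 and 6.95 at 48 HAI. The groups did not overlap (-2.06 ± 0.30, adjusted p = 1.52e-06), and the change from 6 to 26 HAI had been 5.48. The 5 that rose were EXPA6, EXPA7, EXPA11, EXPA12 and EXPA18, all with a mean below 4 at 26 HAI. EXPA7, a root hair expansin, went from 2.57, 2.44 and 2.72 to 6.23, 5.80 and 5.50 (3.27 ± 0.23), again with no overlap. For each of these 10 genes the change differed from that of the preceding interval in the direction of its call.

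Endo-beta-mannanases degrade the mannans of the endosperm wall. MAN7 was the only member of the 4 tested to be called. It gave 7.64, 7.60 and 8.02 at 26 HAI and 5.11, 4.07 and 4.34 at 48 HAI, a change of -3.25 ± 0.32 that followed one of 3.43 in the interval before. Xyloglucan endotransglucosylase/hydrolases (XTHs), which cut and rejoin xyloglucan, were upregulated in 13 of 25 cases and downregulated in 3, with a median of 1.21. These shares of 52% and 12% stand beside 15.3% and 14.9% of all tested genes. XTH7 showed the highest rise of the family, from 1.29, 1.2 and 1.52 to 7.67, 6.44 and 6.86 (5.65 ± 0.29), and XTH14, XTH13 and XTH12 rose by 5.56 ± 0.28, 5.27 ± 0.41 and 4.78 ± 0.33. XTH12 and XTH13 are close neighbours with similar sequences and may share probe signal. XTH25 was the deepest fall of the family at -3.33 ± 0.65. Without replicate 1 at 26 HAI, 13 XTH genes were upregulated and 4 downregulated.

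Root hair genes formed one of the clearest groups. Of 22 tested, 18 were upregulated and none was downregulated, against 15.3% and 14.9% of all tested genes (median 3.48), and another 6 listed genes did not reach the noise limit. RHS19, a peroxidase gene of root hairs, had 3.01, 2.36 and 3.44 at 26 HAI and 9.77, 9.38 and 9.48 at 48 HAI. No overlap occurred, and the rise was 6.61 ± 0.22 or 97.4-fold (adjusted p = 1.06e-17). RSL4, the bHLH factor that sets root hair growth, rose from 1.28, 1.42 and 1.53 to 4.81, 5.0 and 5.07 (3.55 ± 0.29). The 4 members without a call included regulators that act before hairs emerge. RHD6 had 4.83, 5.16 and 4.50 and then 4.36, 4.83 and 4.28 (-0.34 ± 0.25), and CPC (-0.33 ± 0.25) and GL2 (-0.04 ± 0.25) had no call either.

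All 8 tested extensins, structural wall glycoproteins, were upregulated (median 4.81), against 15.3% of all tested genes. LRX1, a leucine-rich repeat extensin of root hairs, was not affected by the array that stood apart. Its values were 2.0, 1.85 and 2.17 at 26 HAI and 8.33, 7.45 and 7.72 at 48 HAI (5.83 ± 0.21, adjusted p = 1.15e-17). EXT6 showed the high replicate 1, with 3.58, 1.96 and 1.25 followed by 8.34, 8.29 and 8.38, yet the groups stayed apart (6.07 ± 0.36). Without that array all 8 were called again and the median was 5.30. Extensins have repeated and similar sequences, so that signal may be shared between members. In the cellulose synthesis list of the primary wall 8 of 11 genes were upregulated by small amounts (median 1.09), led by the chitinase-like gene CTL1 (1.58 ± 0.16) and the synthase subunit CESA5 (1.46 ± 0.35). With array medians equalised over all genes 5 of them were called.

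**Figure D3:**
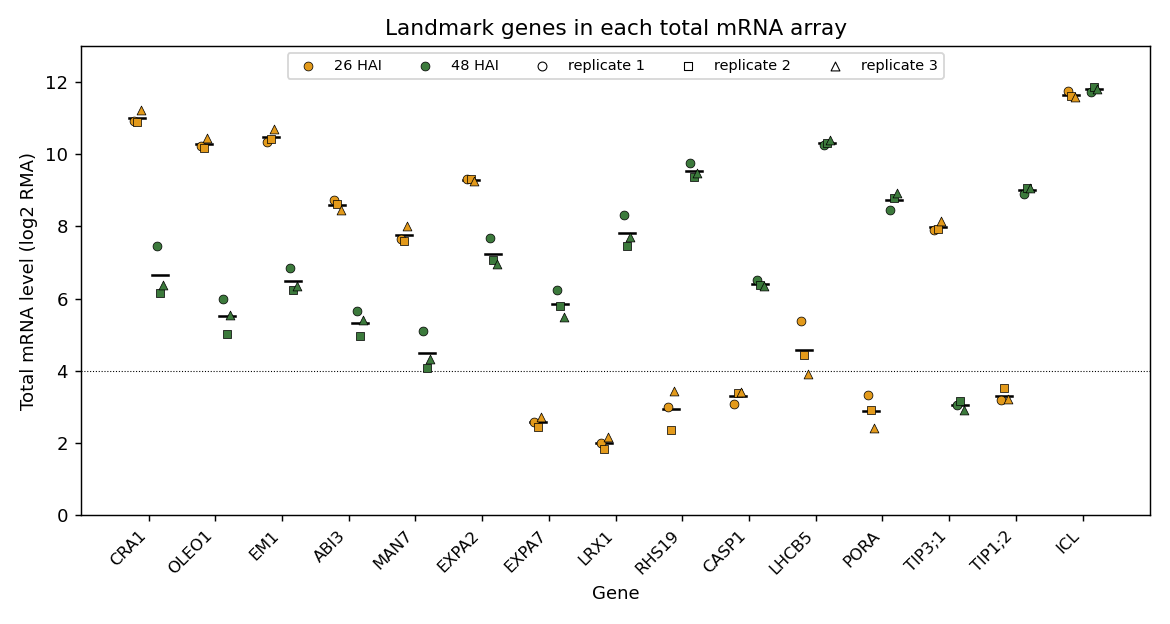
Total mRNA level (y axis, log2 RMA) of 15 genes (x axis) in each array, with points for the 3 replicates at 26 HAI and at 48 HAI and a dotted line at the noise limit of 4. The genes were picked for display. Most are landmark genes, but LHCB5 and TIP1;2 were named for their large change, and landmarks without a call such as DOG1 and RHD6 are not shown. The 2 time points are separate for every gene shown except ICL, whose 6 values lie between 11.60 and 11.86 and overlap. This separation reflects the choice of genes.

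Of the 23 listed markers of the root tip and stele, 11 did not reach the noise limit. Among the 12 tested, 6 were upregulated (50%, beside 15.3% of all tested genes) and none was downregulated. Of the 6, 5 were CASP genes, which build the Casparian strip of the endodermis. CASP1 rose from 3.08, 3.38 and 3.42 to 6.52, 6.38 and 6.35, with wide separation (3.12 ± 0.24, adjusted p = 2.91e-11), and CASP2 to CASP5 rose by 1.77 to 2.39. COBL9, a root hair gene, was the sixth. The stem cell factors PLT1 (-0.82 ± 0.34) and PLT2 (-0.81 ± 0.32) and the patterning factors SCR (-0.12 ± 0.22) and SHR (-0.03 ± 0.20) had no call. Auxin transporters were upregulated in 4 of 9 cases (44.4%), with LAX3 (2.85 ± 0.22) and PIN4 (1.74 ± 0.24) ahead. Most shoot meristem and stomatal markers, 10 of 17, did not reach the noise limit. Of the 7 tested, EPF1, a peptide that spaces stomata, rose by 1.61 ± 0.29, and the meristem factor STM fell from 3.81, 4.0 and 4.69 to 2.5, 3.24 and 3.14 (-1.2 ± 0.28, and -0.94 without replicate 3 at 26 HAI, which is under the limit).

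Genes of mitosis and of DNA replication behaved differently. Mitotic cyclins and B-type kinases were upregulated in 9 of 13 cases and none was downregulated (median 1.70). CYCB1;4 had 3.20, 3.39 and 2.53 at 26 HAI and 6.22, 6.44 and 5.84 at 48 HAI, which did not overlap (3.12 ± 0.24, adjusted p = 3.44e-11). KNOLLE, a syntaxin of the cell plate, rose by 2.95 ± 0.21. CYCB1;1, which is often used as a mitotic reporter, showed no call (-0.15 ± 0.25). Of the 22 replication genes none was upregulated and 1 was downregulated, the origin recognition subunit ORC5 (-1.06 ± 0.16, and -0.98 without replicate 2 at 26 HAI, which is under the limit). The helicase subunit MCM3 had 6.86, 6.88 and 7.01 and then 7.0, 6.88 and 6.96. These values overlapped fully (0.03 ± 0.20), whereas the change from 6 to 26 HAI was 3.97. Of the D-type cyclins, which act at the start of the cycle, CYCD3;1 rose by 1.90 ± 0.26 and CYCD2;1 fell by 1.29 ± 0.21 on the log2 scale.

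Photosystem and light-harvesting genes, the list with the most genes tested, held the highest number of calls of the 32 lists. Of 37 tested 35 were upregulated (94.6%, against 15.3% of all tested genes) and none was downregulated, with a median of 4.06. LHCB5, an antenna protein of photosystem II, rose from 5.38, 4.45 and 3.91 to 10.27, 10.32 and 10.39. The 48 HAI replicates were nearly the same while those at 26 HAI were spread, and the change was 5.74 ± 0.38 (adjusted p = 1.76e-12). PSAK, a subunit of photosystem I, rose by 5.95 ± 0.26. LHCB1.3 (CAB1) had 4.87, 2.92 and 3.04 and then 9.80, 9.97 and 9.95, so that replicate 1 was again the high value (6.30 ± 0.45, and 6.93 without it). The LHCB1 genes are nearly identical and may share probe signal. LHCB2.3 (0.55 ± 0.27) and LHCA5 (0.99 ± 0.21) were the members without a call. Leaving out replicate 1 gave the same count of 35 and a median of 4.19.

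Genes of Rubisco and the Calvin cycle were upregulated in 10 of 15 cases (median 1.71). Among the small subunit genes, RBCS1A, at 10.92, 10.82 and 10.97 and then 11.65, 11.75 and 11.77, rose too little for a call (0.82 ± 0.17). RBCS1B went from 3.33, 4.39 and 2.68 to 9.31, 9.50 and 9.55 (5.99 ± 0.38, adjusted p = 7.66e-13). RBCS1B, RBCS2B and RBCS3B are near copies of each other, so that their shares of the signal are uncertain. Phosphoribulokinase, PRK, rose by 4.12 ± 0.22. Of the 25 chlorophyll synthesis genes 15 were upregulated (median 1.18). The highest rises of the list were those of PORA, GUN5 and PORB (3.64 ± 0.31). PORA, a protochlorophyllide oxidoreductase, rose from 3.32, 2.91 and 2.41 to 8.46, 8.80 and 8.94 (5.85 ± 0.30), and GUN5, the H subunit of magnesium chelatase, from 4.47, 4.32 and 4.35 to 8.33, 8.44 and 8.49 (4.05 ± 0.19). Early enzymes of the tetrapyrrole pathway such as HEMC (0.66 ± 0.11) and HEMB1 (0.72 ± 0.15) stayed under the 2-fold limit, except HEMA1, the first committed enzyme (2.34 ± 0.24).

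The glyoxylate cycle turns fatty acids of the stored oil into precursors of sugar, and of its 12 tested genes 2 were upregulated (16.7%) and 1 was downregulated (8.33%), close to the 15.3% and 14.9% of all tested genes (median 0.06). ICL, isocitrate lyase, had 11.76, 11.60 and 11.60 at 26 HAI and 11.73, 11.86 and 11.82 at 48 HAI. The groups overlapped, and the difference of 0.15 ± 0.10 was not significant (adjusted p = 0.195). Malate synthase, MLS (0.03 ± 0.11), and phosphoenolpyruvate carboxykinase, PCK1 (0.02 ± 0.10), were likewise not called. In peroxisomal beta-oxidation 1 of 14 genes was called, the acyl-CoA oxidase ACX1 (1.43 ± 0.12).

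Hypoxia and fermentation genes were downregulated in 7 of 13 cases (53.8%), with 1 upregulated (7.69%), beside 14.9% and 15.3% of all tested genes (median -1.27). HRA1, an oxygen-responsive repressor, fell from 7.10, 7.25 and 7.08 to 4.77, 4.58 and 3.91, without overlap (-2.72 ± 0.23, adjusted p = 2.07e-10). LBD41 (-2.10 ± 0.21), the plant cysteine oxidase gene PCO2 (-2.01 ± 0.21) and pyruvate decarboxylase PDC1 (-1.62 ± 0.22) followed, and sucrose synthase SUS4 was the gene that rose (2.23 ± 0.21). Proteases of reserve breakdown and cell death were upregulated in 8 of 12 cases (66.7%) and downregulated in 1 (8.33%). BETA-VPE, the vacuolar enzyme that processes storage proteins in the seed, fell from 9.33, 9.08 and 9.44 to 6.6, 5.89 and 5.79 (-3.19 ± 0.37). The vegetative form GAMMA-VPE rose by 2.03 ± 0.17. The papain-like protease CEP2 rose from 3.52, 2.75 and 2.36 to 8.70, 7.96 and 8.15 (5.39 ± 0.34), and RD21B and RD21A rose by 3.80 ± 0.23 and 3.18 ± 0.21.

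The vacuolar aquaporins of the seed fell while those of vegetative cells rose. TIP3;1, the water channel of protein storage vacuoles, had 7.90, 7.93 and 8.16 at 26 HAI and 3.05, 3.18 and 2.93 at 48 HAI (-4.95 ± 0.51), and its close relative BETA-TIP fell by 3.50 ± 0.57 on the log2 scale. TIP1;2, a channel of the vegetative vacuole, had 3.20, 3.53 and 3.22 and then 8.89, 9.05 and 9.07. Within each time point the replicates were close, and the rise of 5.69 ± 0.18 had an adjusted p of 2.16e-18. TIP1;1 rose by 5.22 ± 0.19, TIP4;1 by 4.0 ± 0.31 and the plasma membrane channel PIP2B by 3.94 ± 0.33. In all, 11 of the 17 tested aquaporins were upregulated and 2 downregulated (median 2.01). These shares of 64.7% and 11.8% stand beside 15.3% and 14.9% of all tested genes.

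Transporters for mineral nutrients gave 7 upregulated and 2 downregulated genes of 20 (35% and 10%, beside 15.3% and 14.9% of all tested genes). A further 13 did not reach the noise limit. The phosphate transporter PHT1;1 rose from 3.14, 2.37 and 2.41 to 7.64, 7.11 and 6.96 (4.60 ± 0.36), though its sequence is close to those of other PHT1 genes. The iron transporter IRT2 rose by 3.02 ± 0.20. Light signalling genes had 5 downregulated and 1 upregulated member of 18 (median -0.12), beside 14.9% and 15.3% of all tested genes. The phytochrome-interacting factor PIL5, a repressor of seed germination, fell by 1.26 ± 0.16 on the log2 scale and PIF3, which acts in seedlings, rose by 1.39 ± 0.18. Tubulins had 2 calls among 14 genes, both upward, a share (14.3%) near that of all tested genes.

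Factors of ribosome biogenesis in the nucleolus fell together. Of 17 tested 15 were downregulated and none was upregulated (median -1.59), and the other 2, FIB1 (-0.77 ± 0.14) and FIB2 (-0.98 ± 0.12), were on the same side of 0 but under the 2-fold limit. TOZ, a processome protein needed for embryo division, had 7.77, 7.49 and 7.60 followed by 5.28, 5.41 and 5.24, with no overlap (-2.31 ± 0.15, adjusted p = 1.14e-12). The change was larger in the downward direction than that from 6 to 26 HAI for 14 of the 15 genes, and larger than that from 48 to 72 HAI for 2 of them. NUC-L1, nucleolin, changed by -0.05, -1.13 and -1.55 in the 3 successive intervals.

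Markers of the endosperm and seed coat gave 5 downregulated and 1 upregulated gene of 7 (median -1.62), and another 5 were below the noise limit. The 5 that fell were EPR1, MAN7, MFT, EXPA2 and CYP707A2. All but EPR1 also belong to lists described above, so they are not a separate set of genes. The median is the change of CYP707A2, which lay mostly below the noise limit. EPR1, an extensin-like gene of the endosperm, fell from 9.33, 9.35 and 9.46 to 8.06, 7.89 and 7.57 (-1.54 ± 0.31), and so was still above the noise limit in every 48 HAI array. TT4, chalcone synthase, was the gene that rose, from 4.61, 4.96 and 4.60 to 8.32, 8.43 and 8.51 (3.70 ± 0.18). It makes flavonoids in the seed coat during development and in seedlings, and thus does not mark the seed coat alone. The part of a changing share of endosperm in the results above was not tested.

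The interval was then set beside those before and after it, by a test of the difference between the changes in the same fit. The change from 26 to 48 HAI was at least 2-fold higher than that from 6 to 26 HAI for 2813 genes (16.5%) and lower for 3808 (22.3%). It was higher than that from 48 to 72 HAI for 2031 genes (11.9%) and lower for 2109 (12.4%). Neighbouring intervals share 3 arrays and differ in length. Of the 2608 upregulated genes, 1699 had a higher change than in the interval before, 1637 than in the interval after, and 1158 than in both, and the figures for the 2548 downregulated genes were 1531, 1228 and 660, which describe the calls since the same arrays chose the genes. The lists fell into several time courses. Of the 18 upregulated root hair genes 17 exceeded the interval before and 18 the interval after, and the numbers for the 35 photosystem genes were 32 and 32. In the storage protein list, 3 of 8 genes fell more than in the interval before and 7 more than in the interval after. CRU2 had already changed by -3.41 from 6 to 26 HAI, whereas CRA1 had changed by -0.66 and continued by -2.63 after 48 HAI.

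**Figure D4:**
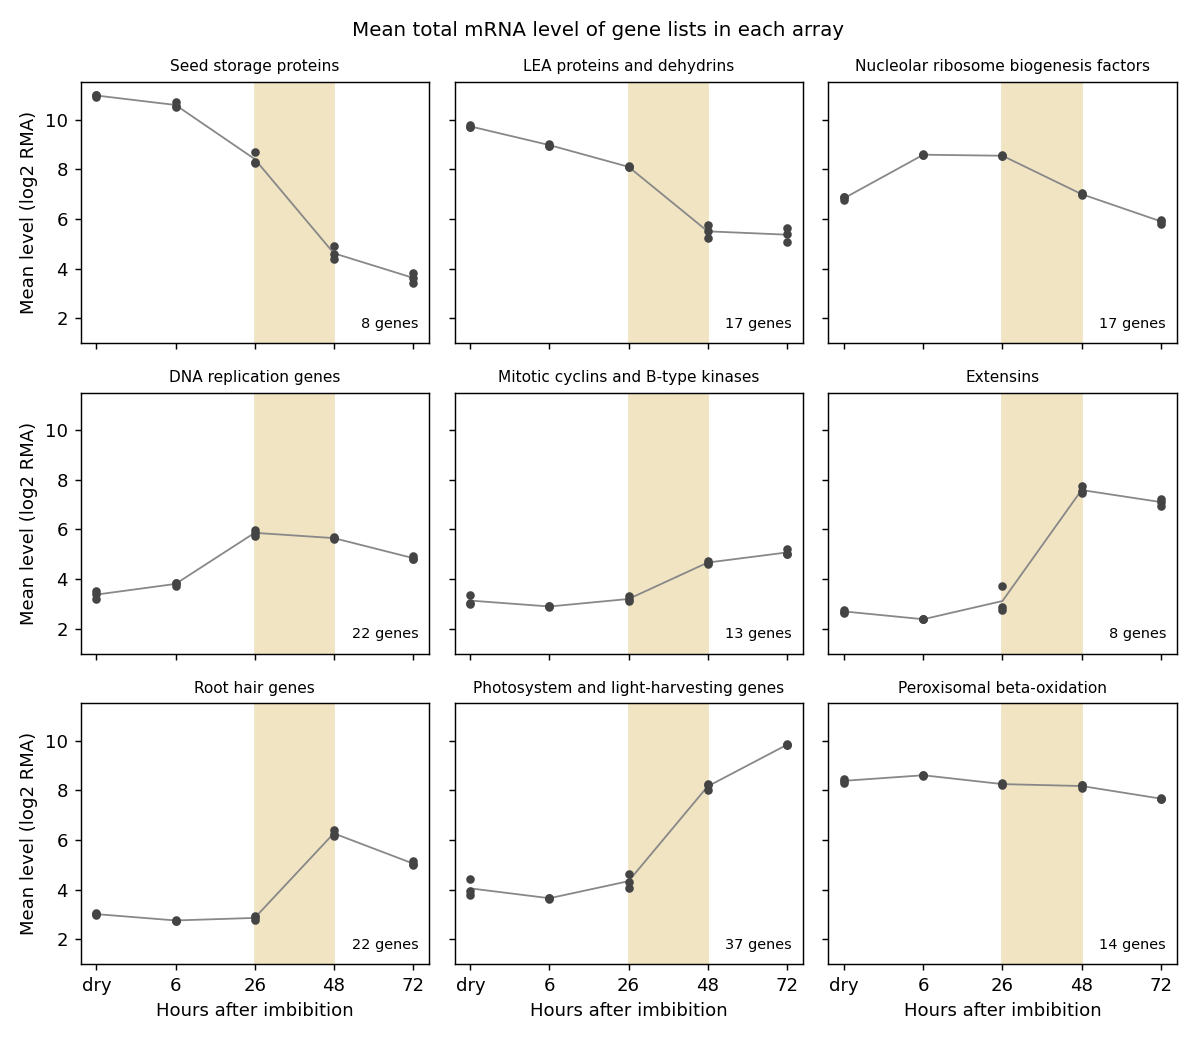
Mean total mRNA level (y axis, log2 RMA) of the tested members of 9 gene lists in each array against hours after imbibition (x axis, with dry seed first and categories evenly spaced); points are arrays, lines join the means of 3 arrays and the shaded band marks 26 to 48 HAI. Root hair, extensin and photosystem lists climb within the band, LEA and nucleolar lists drop there, DNA replication genes climb before it and beta-oxidation genes are nearly level across it.

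Polysomal mRNA was measured on separate arrays at the same times. There 2393 genes were upregulated (14%) and 2499 downregulated (14.6%). Of the 2608 genes upregulated in total mRNA, 1888 were upregulated in polysomal mRNA, 715 had no call and 5 were downregulated. Of the 2548 downregulated genes 1644 were downregulated in polysomal mRNA, 904 had no call and none was upregulated. Members of the lists mostly had the same call in both fractions, which held for 164 of the 174 upregulated and 92 of the 101 downregulated list members. ABI3 changed by -3.27 in total and -3.06 in polysomal mRNA, RHS13 by 6.81 and 6.86, and PORA by 5.85 and 6.31.

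The difference between polysomal and total change, which is the change in polysome occupancy, was called upward for 187 genes (1.1%) and downward for 563 (3.3%). The upward count was 120 without replicate 3 of total mRNA at 26 HAI. Among the genes upregulated in total mRNA 357 had a lower polysomal change and 35 a higher one, and among the downregulated genes 67 had a higher and 15 a lower one. The total mRNA arrays enter both the choice of the genes and the difference, so these numbers are a description. The fit took total and polysomal arrays as independent, and a pairing of the fractions by replicate was not examined. AMT1;2, an ammonium transporter, rose by 2.16 in total but changed by 0.20 in polysomal mRNA, and HSP17.6II rose by 1.42 in total and changed by -2.68 in polysomal mRNA. The B-type kinase CDKB2;2 went the other way, with 0.04 in total and 2.4 in polysomal mRNA.

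The 357 genes that were upregulated in total mRNA and had a lower polysomal change were poorly annotated. No symbol was held for 298 of them (83.5%), compared with 56.7% of the tested genes and 47.4% of the 1888 genes upregulated in both fractions, and 46 (12.9%) were not matched to RefSeq, compared with 1.3% of the tested genes. Their median total mRNA level was 2.77 at 26 HAI and 5.09 at 48 HAI, and their median polysomal level was 2.5 and 2.62. At 72 HAI the medians were 5.33 in total and 2.80 in polysomal mRNA, a description only, since these arrays entered the noise limit and the shared estimate of the spread. AT2G11778 was the clearest case, with 2.56, 2.16 and 2.3 at 26 HAI and 7.98, 8.01 and 7.10 at 48 HAI in total mRNA (5.36 ± 0.25) and polysomal means of 1.93 and 1.79. Transcripts of the mitochondrial genome contributed 20 of the 357 genes. Of the 92 tested mitochondrial genes 33 were upregulated in total mRNA and 5 in polysomal mRNA, while of the 15 plastid genes 7 were upregulated in total and 9 in polysomal mRNA, beside 15.3% of all tested genes in total and 14% in polysomal mRNA. Of the 174 upregulated list members 5 were among the 357, beside 357 of all 2608 upregulated genes. The lists were built from gene symbols, which most of the 357 lack, so this small overlap follows in part from the choice of lists. The parts of poor annotation, of organellar RNA and of the isolation of polysomes in this difference were not tested.

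**Figure D5:**
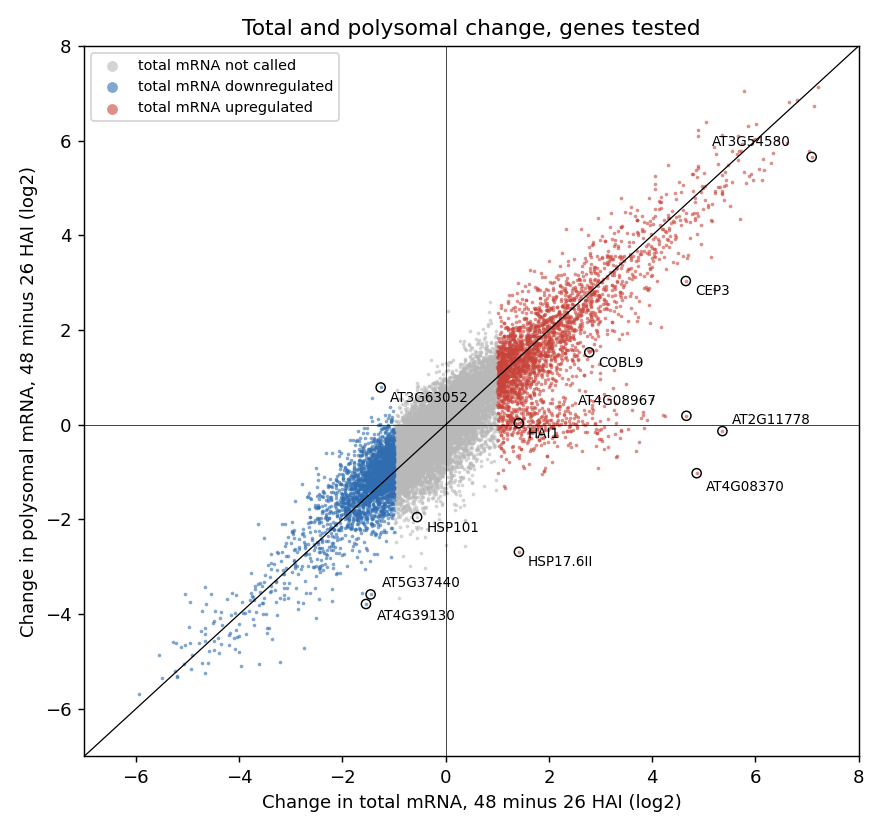
Change from 26 to 48 HAI in total mRNA (x axis, log2) and in polysomal mRNA (y axis, log2) for each tested gene, coloured by the call in total mRNA, with the diagonal of equal change. Most genes lie along the diagonal, a band of upregulated genes lies near 0 on the y axis, and circled genes are named ones whose polysomal and total changes differed.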

How the data were processed

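Total and polysomal RNA from whole seeds was measured on 30 Affymetrix Gene ST arrays, in 10 groups of 3. The deposited values are log2 expression levels per gene that the authors computed with RMA and a Brainarray probe annotation (the genome build is not given in the sources used here). RMA scales the arrays to similar distributions, so that levels are relative. The labelling kit is named differently in the labels and in the methods, and which RNA species were labelled may depend on it. The labels call the molecule of the polysomal arrays total RNA, and the fraction was taken from the titles. The number of arrays limits the precision.

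From these values means, differences and standard errors were computed in R 4.3.3 with limma 3.58.1, in 1 fit of all 30 arrays with the 10 groups as terms, after dropping genes for which no group had its 3 replicates above 4. Calls needed an adjusted p below 0.05 and a 2-fold change. The difference between polysomal and total change, and between successive intervals, were contrasts of the same fit. The code was tested on simulated data. Figures were drawn with matplotlib 3.10.9, and gene symbols came from RefSeq (27241 of 27827 genes matched). The table held 0 columns of other samples.

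Genes were named by rule, namely the 12 highest rises and 12 deepest falls without overlap, fixed landmark genes, up to 3 called members of each list in each direction, and the 3 called genes in each direction whose fractions differed most. Other list members, most of them without a call, were chosen after their values were seen. The members and the 32 gene lists were chosen with earlier results of these data known. Alternatives were other noise limits, scalings, fits, weights and thresholds, the replicate block and leaving out each array, and those for the polysomal and interval comparisons were added after the data had been examined. Lists carry counts and medians and no test of their own. No sequences were used here.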

Additional observations from a re-analysis of the deposited data

Results flagged for a closer look

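Among the genes named by rule, 12 changed differently in total and polysomal mRNA from 26 to 48 HAI by the test of that difference (limma, adjusted over 17061 genes). AT4G08370, AT2G11778, AT4G08967, AT4G39130, AT5G37440 and AT3G63052 were named for having the largest called differences. Their presence here was thus fixed by the choice, and their values are a description. The difference, polysomal minus total change on the log2 scale, was -5.88 for AT4G08370 (4.86 in total and -1.02 in polysomal mRNA, adjusted p = 0.000192), where replicate 1 of total mRNA at 26 HAI was 6.24 and the others were 2.03 and 2.2. It was -5.49 for AT2G11778 (5.36 and -0.13, adjusted p = 1.77e-10) and -4.47 for AT4G08967 (4.66 and 0.19, adjusted p = 1.30e-06). For HSP17.6II, a small heat shock protein, it was -4.10 (1.42 and -2.68, adjusted p = 1.01e-06).

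Among genes that fell in total mRNA, the polysomal change was lower by -2.24 for AT4G39130 (-1.54 and -3.78, adjusted p = 0.0101) and by -2.13 for AT5G37440 (-1.45 and -3.58, adjusted p = 0.00097), whereas AT3G63052 had a difference of 2.05 (-1.26 and 0.79, adjusted p = 0.000342). The chaperone gene HSP101, which was not called in total mRNA, had a difference of -1.40 (-0.55 and -1.95, adjusted p = 0.0118).

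Smaller differences were those of AT3G54580, which rose in both fractions (-1.43, from 7.09 and 5.66, adjusted p = 0.0141), of the ABA signalling phosphatase HAI1 (-1.38, from 1.41 and 0.03, adjusted p = 0.00317), of the protease CEP3 (-1.62, from 4.65 and 3.04, adjusted p = 0.0148) and of SHV2, the root hair gene named COBL9 above (-1.25, from 2.78 and 1.53, adjusted p = 0.0171). AT3G54580 has the repeats of an extensin-like protein family, and signal may be shared with relatives. No explanation was tested for any of these differences.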

How the results depend on the processing

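No called named gene reversed its direction under the alternatives run, while genes without a call and near 0, such as CYCB1;1, MLS, PCK1 and DOG1, changed sign when an array was left out, and 155 of the 162 called named genes kept their call whichever of the 6 arrays was left out. The counts of 2608 upregulated and 2548 downregulated genes lay between 2568 and 2627 and between 2520 and 2639 when 1 array was left out. They moved beyond 1.5 times with the threshold alone, since limma's treat test against a 2-fold change called 1440 and 877 genes and no limit on the fold change 4247 and 6209. Equal array medians over all genes shifted the median change by -0.17 (2246 up and 3400 down) and over the tested genes by 0.13 (2906 and 1999). Between total mRNA at 26 and at 48 HAI no pairing by replicate number was seen. Deviations of same-numbered arrays correlated at -0.0176, 0.0176 and -0.0647. The fit of the 6 arrays with replicate block called 2599 and 2550 genes against 2601 and 2549 without it. Whether same-numbered total and polysomal arrays were paired was not examined.

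In polysomal mRNA the treat test called 1265 up and 864 down and no fold limit 4412 and 5707. For the polysomal minus total change the upward count of 187 became 301 with array weights, 431 with no fold limit and 0 with limma's treat test, and 120 to 176 when 1 total array was left out. The downward count of 563 became 362 with a noise limit of 5 and 60 with treat. For the differences from the interval before, treat called 1114 up and 1161 down, and from the interval after 651 and 337.

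Calls near the 2-fold limit were the least stable. CESA3 (CEV1), CDKB2;1, ORC5, FBP, STM, NUC-L1 and GA2OX6 were among those that lost the call, and AUX1 and FIB2 gained it, under at least 1 setting. Levels below 4 at the lower time point make a fold change a poor estimate of its size.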

Other observations

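Families defined by the shared stem of their symbols held further sets of calls, and they were singled out after their values were seen and carry no test. Of the 13 tested FLA genes, which encode fasciclin-like arabinogalactan proteins of the cell wall, 12 were upregulated (median 2.05), and of 23 AGP genes 12 were upregulated and 1 was downregulated. The IAA genes, early auxin-response repressors, were upregulated in 8 of 16 cases, KCS genes of wax and long-chain fatty acid synthesis in 6 of 13, and GSTU glutathione transferases in 10 of 20.

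Downward families included PRMT, arginine methyltransferases, with 7 of 8 genes downregulated, CRF, cytokinin response factors, with 8 of 11, and NF-YA transcription factor subunits with 6 of 9. TIM genes, whose products import proteins into mitochondria, had 6 of 11 downregulated and NRPB genes, subunits of RNA polymerase II, 6 of 15. WRKY transcription factors had 13 upregulated and 2 downregulated genes among 36. These shares stand beside 15.3% and 14.9% of all tested genes.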
